A study of Mus musculus with 2 samples.

Results

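The MHC class II presentation genes examined here are H2-Aa, H2-Ab1, H2-Eb1, Cd74, Ciita, H2-DMa and H2-DMb1. They were picked by symbol as members of the pathway, with earlier results of these data known, and all 7 were found among the 24421 gene symbols of the deposited data. MHC class II molecules are pairs of an alpha and a beta chain that carry peptides from endocytosed proteins to the cell surface, where CD4+ T cells read them. A newly made pair is held by the invariant chain (Cd74), lysosomal proteases degrade that chain to a short fragment in the binding groove, and H2-DM, itself a class II-like pair, exchanges the fragment for a peptide. Transcription of these genes depends on CIITA, a coactivator that does not bind DNA and is recruited by RFX, CREB and NF-Y proteins sitting on the class II promoters. Dendritic cells, B cells and macrophages are known for high class II levels, and some myeloid progenitors carry low levels.

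RNA came from granulocyte-monocyte progenitors (GMPs), the BM cells that give rise to granulocytes and monocytes, sorted by flow cytometry from female mice. The NTB-GMP library was made from mice without a tumor, and the 4T1-GMP library from mice with 4T1 mammary tumor cells implanted orthotopically. 4T1 is a mouse mammary carcinoma line. The labels name no drug treatment, call both groups F1 semi-syngeneic and H-2b/d, state neither the age nor the number of mice behind a library, and do not name the parental strains. There was 1 library per group, so the differences below have no replicate check and no p-value. Reads had been mapped to the mm10 genome, which is that of an H-2b strain, and the effect of H-2d sequence on the counts of these polymorphic genes was not tested.

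Values are RPKM, the reads of a gene per kilobase of its length scaled to the library size. The library sizes behind them were 10180365 reads in NTB-GMP and 30016263 in 4T1-GMP, so the library in which these genes were low was the deeper by 2.95 times. Reads of Rn45s, the ribosomal RNA precursor, took 16.95% of the NTB-GMP and 6.98% of the 4T1-GMP library size, and leaving them out would move every log2 ratio by about -0.16. Whole reads were recovered from the digits of the values, and are lower bounds where a factor was shared by the reads and the gene length. The 95% intervals rest on these reads and cover counting error only, since reads are PCR products without molecular identifiers. Ratios called log2 ratios are of 4T1-GMP over NTB-GMP after adding 0.1 RPKM to both, which understates the change of low genes. Folds given as "times lower" are of the RPKM themselves. In bulk RNA, fewer cells of a type and less RNA per cell cannot be told apart.

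All 7 genes were lower in 4T1-GMP, and 6 of them at least 2-fold lower, with H2-DMa just short of it and none at least 2-fold higher. A gene is called expressed below where its mean over the libraries was 1 RPKM or more. A gene can pass this limit through the library in which it is high, as H2-DMb1 did through NTB-GMP (8.57 and 0.545 RPKM). Klf1 (2.18 and 0.326 RPKM) and H2-Ob, named below, did so too. The shares of expressed genes rest on the same limit. Among the 10378 expressed genes, 4.92% were at least 2-fold lower and 3.25% at least 2-fold higher. By this limit 6 of the 7 were expressed, all except Ciita, and 5 of these 6 were at least 2-fold lower. Their median log2 ratio was -3.25, against 0.05 for all expressed genes. At a fold of 4, again 6 of the 7 were lower, beside 1.2% of the expressed genes and 1.73% of genes above 0 in either library. H2-Aa, H2-Ab1, Cd74 and H2-DMb1 lay beyond 8-fold on the log2 ratio scale, beside 0.434% of the expressed genes. Ciita, which is low, was beyond 8-fold only without the added 0.1 RPKM. Summed over the 7 genes, the level was 126.3 RPKM in NTB GMPs and 21.25 RPKM in 4T1 GMPs, or 16.8% of it.

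The order of the levels differed between the libraries. In NTB-GMP, Cd74 came first with 42.35 RPKM (95% exact Poisson interval on its reads 39.1 to 45.9), followed by H2-Ab1 (24.3, interval 21.6 to 27.2), H2-Aa (21.04, interval 18.4 to 23.9) and H2-DMa (20.2, interval 18.1 to 22.5), whose intervals overlap one with the next. H2-Eb1 (8.71) and H2-DMb1 (8.57) came after them with overlapping intervals, and Ciita (1.097) was last. In 4T1-GMP, H2-DMa came first with 10.45 RPKM (interval 9.57 to 11.4), followed by Cd74 (4.85, interval 4.21 to 5.56). H2-Ab1 (2.21), H2-Aa (1.75) and H2-Eb1 (1.34) came next, each interval overlapping with that of its neighbour, then H2-DMb1 (0.545, interval 0.337 to 0.833) and Ciita (0.122). H2-DMa thus moved from the fourth place to the first.

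**Figure D1:**
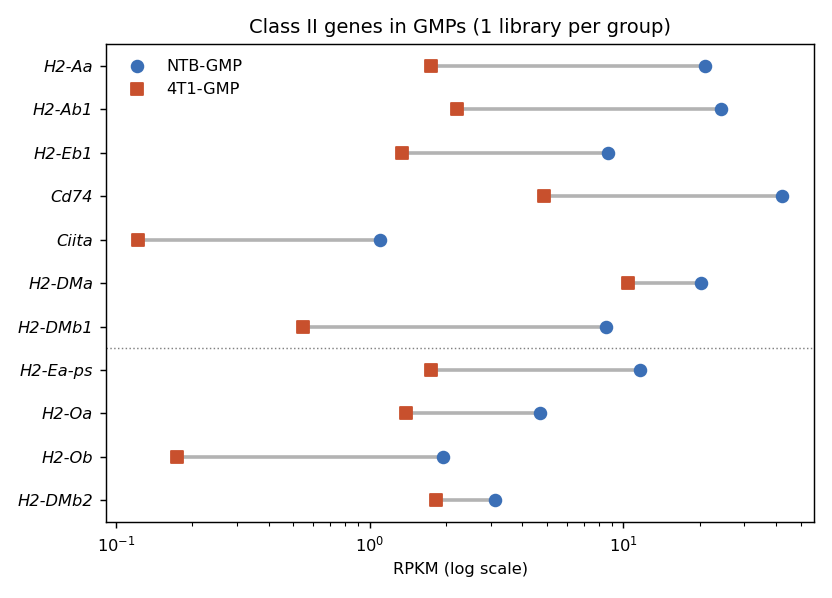
RPKM on a log axis of the 7 class II presentation genes (above the dotted line) and of the 4 other class II genes above 0 (below it), in NTB-GMP (circles) and 4T1-GMP (squares), 1 library each. Every square lies to the left of its circle, with the shortest distances for H2-DMa (20.2 to 10.45) and H2-DMb2 (3.124 to 1.823).

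The antigen-binding chains were among the genes with the largest differences. H2-Aa, the alpha chain of the I-A molecule (GRCm38 chr17:34282744-34287823, minus strand), had 21.04 RPKM in NTB GMPs (229 reads) and 1.75 RPKM in 4T1 GMPs (56 reads). It was 12.1 times lower in 4T1-GMP (95% Clopper-Pearson interval 8.97 to 16.4), with a log2 ratio of -3.52, and 0.270% of all expressed genes had a lower one. H2-Ab1, the beta chain of I-A (chr17:34257689-34269419, plus strand), had 24.3 RPKM in NTB GMPs (295 reads) and 2.21 RPKM in 4T1 GMPs (79 reads). It was 11.01 times lower (interval 8.56 to 14.3), with a log2 ratio of -3.40. The level of the alpha chain over that of its beta partner was 0.866 in NTB-GMP and 0.791 in 4T1-GMP. This quotient does not depend on library scaling, and it changed by 0.913 times (interval 0.610 to 1.36), which spans no change, so the chains of I-A could not be told apart in how far they were lower.

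H2-Eb1, the beta chain of the I-E molecule (chr17:34305867-34316674, plus strand), was the lowest of the chains, with 8.71 RPKM in NTB GMPs (148 reads) and 1.34 RPKM in 4T1 GMPs (67 reads). It was 6.51 times lower in 4T1-GMP (interval 4.85 to 8.83), with a log2 ratio of -2.62. Its alpha partner is encoded by H2-Ea, which H-2d mice express and which is a pseudogene in H-2b mice. The deposited data name it H2-Ea-ps, the name in the H-2b reference. H2-Ea-ps had 11.7 RPKM in NTB GMPs (93 reads) and 1.74 RPKM in 4T1 GMPs (41 reads), 6.69 times lower (interval 4.58 to 9.91). H2-Eb1 over H2-Ea-ps was 0.747 in NTB-GMP and 0.767 in 4T1-GMP, a change of 1.03 times (interval 0.628 to 1.69). As with I-A, the partners stood in about the same proportion in both libraries. An antisense gene, Gm20513, overlaps 2204 bases of H2-Eb1 and was not in the data, and the strand setting of the counting is not given in the sources used here.

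Cd74, the invariant chain (GRCm38 chr18:60803848-60812652, plus strand), had the highest level of the 7 genes in NTB-GMP. It had 42.35 RPKM there (610 reads) and 4.85 RPKM in 4T1 GMPs (206 reads), 8.73 times lower (interval 7.44 to 10.3), with a log2 ratio of -3.10. Like Ciita, it lies outside the class II region of chromosome 17. Its level over that of H2-Ab1 was 1.74 in NTB-GMP and 2.20 in 4T1-GMP, a change of 1.26 times (interval 0.932 to 1.72) that also spans no change. 

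Ciita, the transactivator (GRCm38 chr16:10480059-10528418, plus strand), was the lowest of the 7 in both libraries, with 1.097 RPKM in NTB GMPs (67 reads) and 0.122 RPKM in 4T1 GMPs (22 reads). It was 8.98 times lower in 4T1-GMP (interval 5.48 to 15.3). Its log2 ratio was -2.43 with the added 0.1 RPKM and -3.17 without. Ciita overlaps Dexi, on the opposite strand, over 25888 bases, but of its 50-base stretches of transcript sequence only 1.46% also occur in another gene, all of them in Dexi.

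H2-DMa and H2-DMb1 encode the chains of H2-DM, and they differed from each other. H2-DMb1, the beta chain (chr17:34153072-34160230, plus strand), had 8.57 RPKM in NTB GMPs (112 reads) and 0.545 RPKM in 4T1 GMPs (21 reads). It was 15.7 times lower (interval 9.81 to 26.4), the largest fold of the 7, with a log2 ratio of -3.75. H2-DMa, the alpha chain (chr17:34119541-34139101, plus strand), had 20.2 RPKM in NTB GMPs (341 reads) and 10.45 RPKM in 4T1 GMPs (520 reads). It was 1.93 times lower (interval 1.68 to 2.22), with a log2 ratio of -0.94, and 5.396% of all expressed genes had a lower one. Once Rn45s was taken out of the library sizes, its log2 ratio was -1.11 and it too was at least 2-fold lower. H2-DMa over H2-DMb1 was 2.36 in NTB-GMP and 19.2 in 4T1-GMP, an increase of 8.13 times (interval 4.95 to 13.9). Against H2-Ab1 the quotient of H2-DMa went from 0.832 to 4.74, an increase of 5.69 times (interval 4.26 to 7.66). Neither interval includes 1, and neither depends on how the libraries are scaled.

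Both DM genes have neighbours in sequence that could share their reads. H2-DMb1 has a close copy beside it, H2-DMb2, which holds 22.7% of the 50-base stretches of H2-DMb1, so the split of reads between them is uncertain. H2-DMb2 had 3.124 RPKM in NTB GMPs (25 reads) and 1.82 RPKM in 4T1 GMPs (43 reads), 1.71 times lower (interval 1.00 to 2.87), and its quotient over H2-DMb1 rose from 0.365 to 3.35, by 9.17 times (interval 4.42 to 19.1). The summed level of H2-DMb1 and H2-DMb2 gave a log2 ratio of -2.26, still well below that of H2-DMa. H2-DMa shares 8.43% of its 50-base stretches with Brd2, which lies on the opposite strand, and Brd2 had 48.2 RPKM in NTB GMPs and 42.4 RPKM in 4T1 GMPs (log2 ratio -0.18, a gene looked up after the other values were seen). The overlap comes from upstream transcripts of the annotated H2-DMa gene. The length by which its reads had been divided, 1658 bases, equals that of the coding transcript starting at 34122832, which lies 18 bases past the end of Brd2 and does not reach into it. The annotated H2-DMa gene also overlaps CR974462.3 (591 bases, same strand), CR974462.4 (1491 bases, opposite strand) and the pseudogene Gm20493 (637 bases, opposite strand). These were not in the data, and their effect on the H2-DMa counts was not tested.

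**Figure D2:**
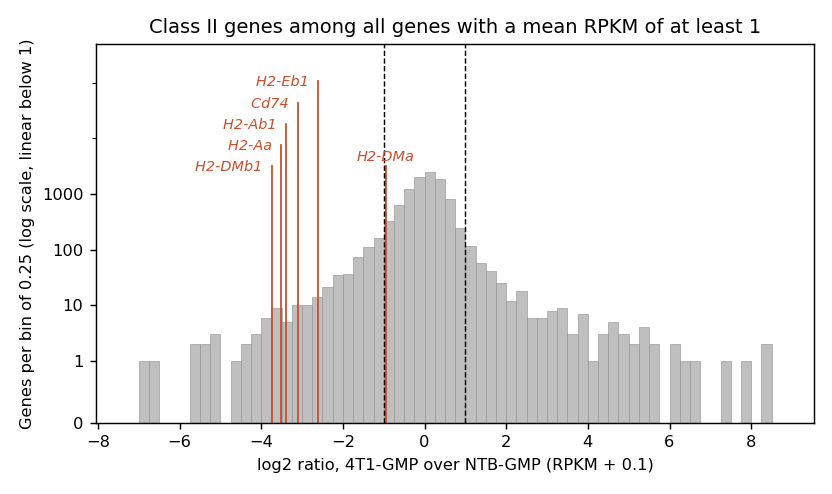
Log2 ratios of 4T1-GMP over NTB-GMP (RPKM + 0.1) for the 10378 expressed genes, as the number of genes per bin on a log axis, with the 6 expressed class II presentation genes as lines and 2-fold differences as dashed lines. H2-DMb1 (-3.75), H2-Aa (-3.52), H2-Ab1 (-3.40), Cd74 (-3.10) and H2-Eb1 (-2.62) lie in the sparse left tail and H2-DMa (-0.94) at the left shoulder.

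Of the other class II genes, 5 of the 6 listed were in the data. H2-Ob, the beta chain of H2-O, which restrains H2-DM, had 1.95 RPKM in NTB GMPs (53 reads) and 0.175 RPKM in 4T1 GMPs (14 reads), 11.2 times lower (interval 6.11 to 21.8). H2-Oa, its alpha partner, had 4.68 RPKM in NTB GMPs (50 reads) and 1.40 RPKM in 4T1 GMPs (44 reads), 3.35 times lower (interval 2.19 to 5.14). H2-Oa over H2-Ob was 2.401 in NTB-GMP and 7.999 in 4T1-GMP, an increase of 3.33 times (interval 1.55 to 7.37). In H2-O as in H2-DM, the beta chain was thus lower by more than the alpha chain, while the chains of I-A and I-E kept their proportions within counting error. H2-Eb2 was listed at 0 in both libraries. Of the 4 expressed among them, 3 were at least 2-fold lower, and H2-DMb2, with a log2 ratio of -0.75, was not. Of these 3, H2-Ob passed the limit for expressed genes only through NTB-GMP, where it is high.

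Genes within the class II region did not all share the difference. Between H2-DMa and H2-Ea-ps (chr17:34119541-34344645) the data held 13 genes, of which 9 were class II genes and 4 belong to the class I pathway. Among the class II genes 8 were above 0 and 6 were at least 2-fold lower. None of the 4 class I genes was: Psmb9, an immunoproteasome subunit, had 36.4 RPKM in NTB GMPs and 33.2 RPKM in 4T1 GMPs, and Psmb8, another, had 127.9 and 129.5 RPKM. Tap1 and Tap2, the peptide transporter into the endoplasmic reticulum, had 28.3 and 54.7 RPKM in NTB GMPs and 21.3 and 34.4 RPKM in 4T1 GMPs. Their log2 ratios ran from -0.67 for Tap2 to 0.02 for Psmb8. In chromosomal order these 4 genes sit between H2-DMb1 and H2-Ob, whose log2 ratios were -3.75 and -2.90.

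**Figure D3:**
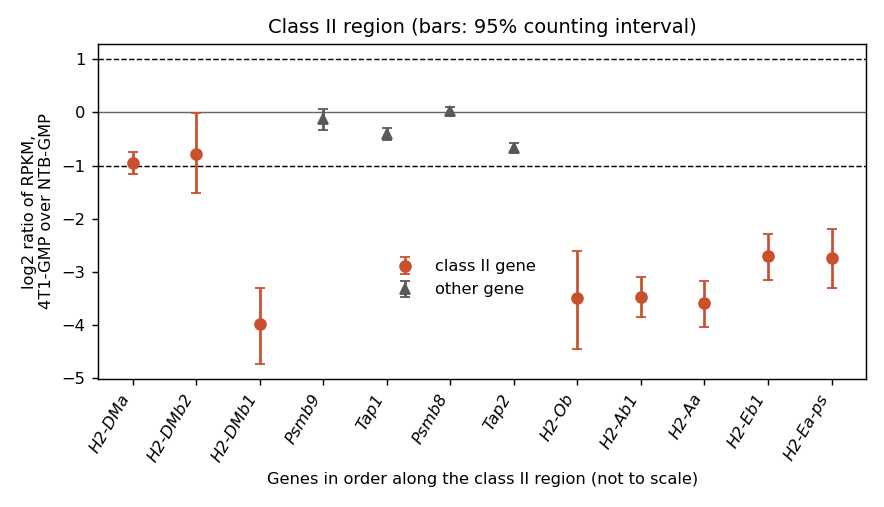
Log2 ratio of the RPKM without an added constant, 4T1-GMP over NTB-GMP, for the 12 genes above 0 in the class II region in chromosomal order (not to scale), with 95% Clopper-Pearson counting intervals as bars. Class II genes (circles) lie between -3.98 and -0.78 and the 4 class I pathway genes (triangles) lie closer to 0.

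Promoter sequences show which of these genes carry the letters that class II promoters are known for, the X box bound by RFX and the Y box bound by NF-Y. In RefSeq promoters (GRCm38.p6, 250 bases before to 50 after the start), AGNAAC, a part of the X box, was searched for on both strands when followed after 15 to 45 letters by ATTGG, the core of the Y box. This pair occurred in 1.62% of 32851 promoters. The promoter table held 4 of the 7 genes, H2-Aa, H2-Eb1, H2-DMa and H2-DMb1. The pair was found in H2-Eb1, with AGNAAC at position -92 and ATTGG at -59 relative to the start, and in H2-DMb1, at -95 and -61. In H2-Aa, ATTGG was found at -48, and the looser NGNAAC before it, which with ATTGG occurred in 4.93% of promoters. At the start of H2-DMa that fits its 1658-base length neither pair nor ATTGG nor CCAAT was found, although ATTGG or CCAAT occurred in 37.4% of all promoters. The other start of H2-DMa in the table held ATTGG or CCAAT but not the pair. Coding transcripts of H2-DMa also start further on, at 34135628 and 34135654. The promoter table held neither of these starts, so the letters before them were not searched. Among the other class II genes the pair was found in 3 of 4, H2-Oa, H2-Ob and H2-Eb2, and not in H2-DMb2. None of 13 class I pathway genes with a promoter in the table held it. A match is a run of letters and not a shown binding site, and no match says only that these letters are not in the window. The following stretches of 100 bases end 31 bases before the start and are written 5′ to 3′ on the gene's strand, with AGNAAC and ATTGG in capitals. They are shown because the genes differ in their ratios and in these letters, H2-Eb1 (chr17:34305737-34305836, plus) and H2-Ob (chr17:34238775-34238874, plus) with the pair, H2-Aa (chr17:34287854-34287953, minus) with ATTGG and the looser NGNAAC, and H2-DMb2 (chr17:34145119-34145218, plus) with ATTGG and neither pair.
H2-Eb1: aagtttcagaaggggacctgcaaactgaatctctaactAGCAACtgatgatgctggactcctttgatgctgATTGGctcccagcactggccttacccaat
H2-Ob: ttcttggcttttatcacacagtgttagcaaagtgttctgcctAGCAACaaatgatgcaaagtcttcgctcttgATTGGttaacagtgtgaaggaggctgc
H2-Aa: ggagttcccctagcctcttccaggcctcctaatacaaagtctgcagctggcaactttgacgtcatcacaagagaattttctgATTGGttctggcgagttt
H2-DMb2: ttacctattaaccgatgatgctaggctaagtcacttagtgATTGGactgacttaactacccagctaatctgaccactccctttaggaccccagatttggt

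H2-DMb1 and H2-DMb2 are close copies whose ratios differed, and their promoters are alike around the Y box. The 30 bases that begin with the AGNAAC of H2-DMb1 (chr17:34153096-34153125, plus) and the 30 at the same distance before ATTGG in H2-DMb2 (chr17:34145125-34145154, plus) are shown with the first 6 letters in capitals.
H2-DMb1: AGTAACtgatgatgctaggctgattcactc
H2-DMb2: ATTAACcgatgatgctaggctaagtcactt
They differ at 5 of the 30 positions, counted from 1 at the 5′ end with the base of H2-DMb1 first, G2T, T7C, G22A, T24G and C30T. G2T lies within AGNAAC, so that the H2-DMb2 stretch has no match. Of the class II genes with no AGNAAC pair in the windows searched, H2-Aa was 12.1 times lower, H2-DMa 1.93 times and H2-DMb2 1.71 times. For H2-DMa these windows leave out the later starts of coding transcripts. The split of reads between the DMb copies is uncertain, with 22.7% of the H2-DMb1 stretches shared. Whether these letters have a part in the ratios was not tested.

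The RNAs of the proteins known to sit on class II promoters showed no difference of this size. All 7 listed genes of RFX, NF-Y and CREB were expressed, none was 2-fold lower or higher, and their median log2 ratio was 0.05, the same as for all genes. Nfya, the DNA-contacting subunit of NF-Y, had 36.7 RPKM in NTB GMPs and 26.9 RPKM in 4T1 GMPs, Nfyc had 20.3 and 22.4 RPKM, and Creb1 had 19.3 and 20.4 RPKM. Rfx5, a subunit of RFX, had 10.3 RPKM in NTB GMPs (441 reads) and 8.50 RPKM in 4T1 GMPs (1069 reads), 1.22 times lower (interval 1.09 to 1.36). Ciita, at 8.98 times lower, differed by more than any of these 7 in the libraries.

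Of the genes that act on Ciita, 10 of 13 were expressed, 2 of these were at least 2-fold lower, none was at least 2-fold higher, and the median log2 ratio was -0.10. Irf8, a transcription factor of monocyte and dendritic cell development, had 32.0 RPKM in NTB GMPs (1117 reads) and 4.45 RPKM in 4T1 GMPs (459 reads), 7.18 times lower (interval 6.43 to 8.02), a log2 ratio of -2.82. Irf2, a partner of Irf1 at interferon-responsive promoters, had 11.5 RPKM in NTB GMPs (145 reads) and 5.37 RPKM in 4T1 GMPs (200 reads), 2.14 times lower (interval 1.71 to 2.66). The genes of the interferon-gamma pathway, a known inducer of Ciita, showed other values. Ifngr1, the ligand-binding receptor chain, had 152.7 RPKM in NTB GMPs and 218.4 RPKM in 4T1 GMPs. Jak1, a kinase of its receptor, had 38.9 and 35.3 RPKM. Spi1, which encodes PU.1, had 63.9 RPKM in NTB GMPs and 90.1 RPKM in 4T1 GMPs, a log2 ratio of 0.50.

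Lysosomal enzymes and ubiquitin ligases of the class II pathway did not differ together with its chains. Among 10 listed genes 8 were expressed, none was 2-fold lower or higher, and the median log2 ratio was 0.11. The cathepsins with the highest levels were higher in 4T1-GMP, with Ctsd at 112.0 RPKM in NTB GMPs and 168.2 RPKM in 4T1 GMPs, Ctsz at 93.2 and 142.9 RPKM, and Ctsb at 33.7 and 50.5 RPKM. Ctss, the cathepsin known for cutting the invariant chain in antigen-presenting cells, had 4.19 RPKM in NTB GMPs (29 reads) and 2.35 RPKM in 4T1 GMPs (48 reads), 1.78 times lower (interval 1.08 to 2.88).

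The class I pathway, which presents peptides from the cytosol to CD8+ T cells, was measured in the same libraries at higher levels. Of its 15 genes, all expressed, only H2-K1 was at least 2-fold lower, none was at least 2-fold higher, and the median log2 ratio was -0.13. B2m, the light chain of class I molecules, had 579.6 RPKM in NTB GMPs and 545.7 RPKM in 4T1 GMPs. The chaperones Calr and Pdia3 had 1522 and 286.4 RPKM in NTB GMPs and 2143 and 396.6 RPKM in 4T1 GMPs. H2-K1, a class I heavy chain, had 127.2 RPKM in NTB GMPs (2131 reads) and 38.3 RPKM in 4T1 GMPs (1891 reads), 3.32 times lower (interval 3.122 to 3.537), but 9.63% of its 50-base stretches occur in other genes and it is polymorphic between H-2b and H-2d. H2-D1, another heavy chain, had 83.6 and 89.4 RPKM. Nlrc5, the class I counterpart of Ciita, had 5.23 RPKM in NTB GMPs (370 reads) and 2.80 RPKM in 4T1 GMPs (583 reads), a log2 ratio of -0.88 against -2.43 for Ciita.

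Most of the ligands that accompany antigen presentation were near the lower limit of detection. Of the 7 costimulatory and coinhibitory genes, 2 were expressed, Cd274 (PD-L1) with 4.05 RPKM in NTB GMPs and 2.94 RPKM in 4T1 GMPs, and Icosl with 1.39 and 1.64 RPKM. Neither lay beyond 2-fold. Cd86 had 0.271 RPKM in NTB GMPs (7 reads) and 0.0656 RPKM in 4T1 GMPs (5 reads), 4.13 times lower with an interval of 1.13 to 16.5. Cd83 and Pdcd1lg2 were at 0 in NTB-GMP, and Pdcd1lg2 had 0.234 RPKM in 4T1 GMPs (24 reads).

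**Figure D4:**
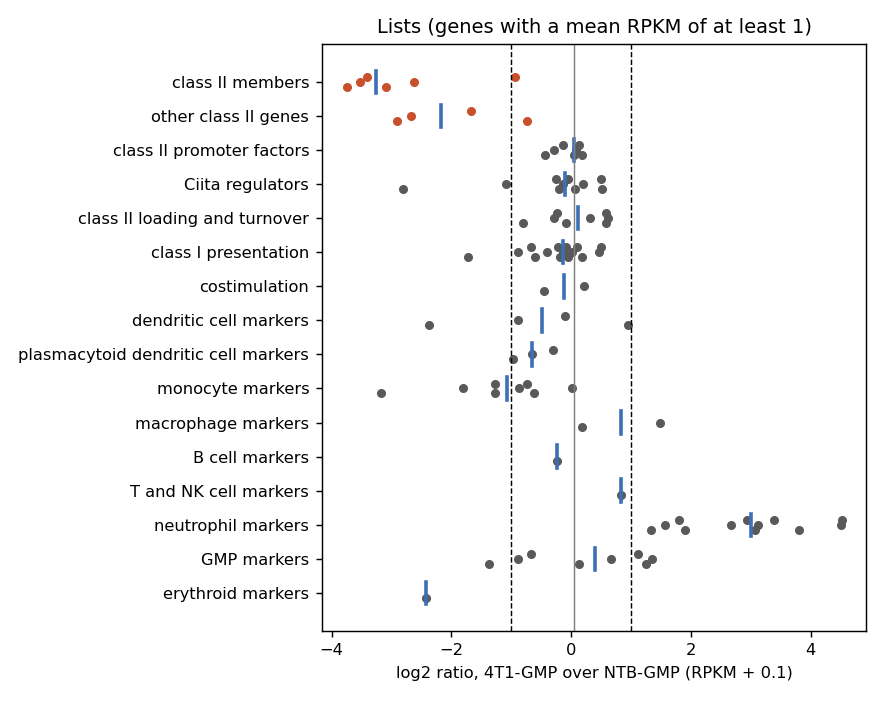
Log2 ratios of 4T1-GMP over NTB-GMP (RPKM + 0.1) for the expressed genes of each list (points, spread vertically for legibility), with the list's median as a vertical bar, the median of all genes as a thin line and 2-fold differences as dashed lines. The medians are -3.25 for the class II presentation genes and -2.17 for the other class II genes. Those of the promoter factors (0.05), the loading genes (0.11) and the class I genes (-0.13) lie to the right of these. Single points overlap, with H2-DMa (-0.94) and H2-DMb2 (-0.75) to the right of the class I gene H2-K1 (-1.73). The neutrophil markers lie furthest to the right (median 3.001).

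Other cells that carry class II could lie within the GMP gate, so the markers of each were read in both libraries. Of 12 dendritic cell markers, 4 were expressed and 1 of these was at least 2-fold lower. With low genes counted too it was 4 of the 12, beside 8.4% of genes above 0 in either library. Their summed level was 206.7 RPKM in NTB GMPs and 352.6 RPKM in 4T1 GMPs, most of it Cd24a, which is not restricted to dendritic cells (175.4 and 337.6 RPKM). Flt3, also a receptor of early progenitors, had 12.6 RPKM in NTB GMPs (469 reads) and 2.34 RPKM in 4T1 GMPs (257 reads), a log2 ratio of -2.38, and Naaa had 7.46 and 6.94 RPKM. Clec9a had 1.25 RPKM in NTB GMPs (21 reads) and 0.142 RPKM in 4T1 GMPs (7 reads). Xcr1 was 1.54 times lower (interval 0.67 to 3.35) and Itgax 1.36 times lower (interval 0.73 to 2.44), and both intervals span no change. Clec10a was higher in 4T1-GMP, with 0.654 RPKM in NTB GMPs and 0.866 RPKM in 4T1 GMPs, and its interval also spans no change. Id2 had 7.80 and 4.19 RPKM. Zbtb46 and Batf3 had 0.354 and 0.552 RPKM in NTB-GMP (at least 6 reads and 1 read) and were at 0 in 4T1-GMP. The length implied for Batf3, 178 bases, is below that of its nearest annotated transcript (438 bases), so its true reads may be more. Cd209a and Ccr7 were at 0 in both libraries. The part of dendritic cells in the class II difference was not tested.

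Plasmacytoid dendritic cell markers summed to 42.96 RPKM in NTB GMPs and 30.04 RPKM in 4T1 GMPs over 8 genes. Of the 3 expressed ones, Bst2, Tcf4 and Runx2, none was at least 2-fold lower. Siglech had 2 reads in NTB-GMP and 1 in 4T1-GMP, Klk1 was at 0 in both, Ccr9 at 0 in NTB-GMP and Ly6d at 0 in 4T1-GMP. The part of these cells was not tested either. The 11 B cell markers in the data summed to 16.5 and 13.4 RPKM, of which Cd79b made 14.7 and 12.4 RPKM and Igll1 0.565 and 0.613 RPKM. Ms4a1, Pax5 and Vpreb3 had 1 to 3 reads in NTB-GMP and were at 0 in 4T1-GMP, and Vpreb1 was at 0 in NTB-GMP. Cd79b, a chain of the B cell receptor complex, had 179 and 447 reads. The part of B cells was not tested.

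Of 10 macrophage markers 2 were expressed, Slc40a1 with 11.5 RPKM in NTB GMPs and 32.1 RPKM in 4T1 GMPs, and Vcam1 with 16.7 and 19.0 RPKM. Adgre1 had 1.24 and 0.503 RPKM. C1qb had 1.02 RPKM in NTB GMPs (11 reads) and was at 0 in 4T1-GMP, as was C1qc, and Mertk and Marco were at 0 in both. C1qa went the other way, with 0.182 RPKM in NTB GMPs and 0.246 RPKM in 4T1 GMPs, but its interval spans no change. Axl and Cd163 had 11 and 12 reads in NTB-GMP and 3 each in 4T1-GMP. The summed macrophage level was 31.5 RPKM in NTB GMPs and 51.9 RPKM in 4T1 GMPs, most of it Slc40a1 and Vcam1. At least 2-fold lower were 5 of the 10 markers, all of them low, beside 8.4% of genes above 0 in either library. The part of macrophages, too, was not tested.

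Monocyte markers were partly lower along with the class II genes, and neutrophil markers were higher. The 10 monocyte markers summed to 205.1 RPKM in NTB GMPs and 116.6 RPKM in 4T1 GMPs, and 4 of the 8 expressed ones were at least 2-fold lower. Ly86 had 9.56 and 0.969 RPKM (log2 ratio -3.18), Cx3cr1 3.72 and 0.994 RPKM, Ms4a6c 20.6 and 8.43 RPKM, and Ly6c2 88.7 and 36.8 RPKM. F13a1, also a monocyte marker, was at 49.1 and 49.6 RPKM, and Fcgr1 was at 0 in NTB-GMP. The 12 neutrophil markers were all at least 2-fold higher in 4T1-GMP and summed to 514.0 RPKM in NTB GMPs and 4072 RPKM in 4T1 GMPs, led by S100a9 (189.1 and 1974 RPKM), S100a8 (208.0 and 1594 RPKM) and Ngp (49.4 and 146.7 RPKM). Neutrophil precursors are not known for class II, and whether the higher neutrophil marker RNA has a part in the lower class II values was not tested.

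The GMP markers were present in both libraries. Mpo, myeloperoxidase, had 5163 RPKM in NTB GMPs and 5625 RPKM in 4T1 GMPs, Prtn3 had 1399 and 3311 RPKM, and Elane had 1853 and 2935 RPKM. Ctsg and Ms4a3, which with Prtn3 were at least 2-fold higher, had 1388 and 479.4 RPKM in NTB GMPs and 2998 and 1220 RPKM in 4T1 GMPs. The genes of surface molecules by which GMPs are commonly gated were lower, Kit with 78.5 and 49.1 RPKM, Fcgr3 with 53.1 and 28.6 RPKM, and Cd34 with 153.8 and 59.4 RPKM, 2.59 times lower (interval 2.48 to 2.70). T and NK cell markers summed to 191.5 and 338.7 RPKM, nearly all of it Nkg7, with Lck at 0.299 and 0.783 RPKM, Cd4 at 0.349 and 0.301 RPKM, Cd3g at 0 in both libraries, Cd3e and Cd8a at 0 in NTB-GMP and Gzma at 0 in 4T1-GMP. Erythroid markers were lower as well. They summed to 5.19 and 0.451 RPKM, or 8.69% of the NTB-GMP level. Of the 8 listed, 5 were at least 2-fold lower, beside 8.4% of genes above 0 in either library. Klf1, the only one expressed by the limit above, had 2.18 and 0.326 RPKM. Car1 had 1.73 and 0.0267 RPKM, and the globin genes Hba-a1, Hbb-bs and Hbb-bt were at 0 in both.

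The genes whose log2 ratio was nearest to the median of the class II presentation genes, among those whose mean RPKM reached 5, were Angpt1 (-3.21), Ear2 (-3.19), Ly86 (-3.18), Gzmb (-3.12) and Scin (-3.40). Likeness here rests on the ratio of 2 libraries. Angpt1, a ligand of the Tie2 receptor, had 24.7 RPKM in NTB GMPs and 2.59 RPKM in 4T1 GMPs, a level close to that of H2-Ab1 in both. Ear2, an eosinophil-associated ribonuclease, had 10.1 and 1.02 RPKM, and Gzmb, granzyme B, had 17.3 and 1.91 RPKM.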

How the data were processed

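GMPs were sorted from BM of NTB mice and of mice bearing 4T1 tumors, and total RNA was sequenced, with 1 library per group. The authors deposited RPKM per gene symbol, at full precision. Per the submitters' processing notes the tools were CASAVA 1.8.2, cutadapt 1.2.1, TopHat2 2.0.13, Picard 1.97, HTSeq 0.6.1 and edgeR 3.12.1 with build mm10, and their settings, the annotation and the gene lengths are not given in the sources used here. RPKM depend on those lengths and on which reads enter the library size.

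Whole reads and library sizes were recovered from the ratios of the RPKM together with GENCODE M21 transcript lengths (635 genes gave the library sizes exactly). Reads were recovered for 14831 of the 14833 genes above 0. The recovery was tested on simulated data. Recovered reads can be too low by a common factor, which makes the reads given lower bounds and only widens the intervals. The library sizes came out as fractional numbers, given here rounded, and whether the authors had scaled them is not stated. Intervals of ratios are 95% Clopper-Pearson, and those of quotients between genes are exact conditional intervals of an odds ratio. Log2 ratios used a pseudocount of 0.1, and genes needed a mean RPKM of at least 1. With 1 library per group a difference was called at 2-fold and no test was run.

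The genes and lists were chosen with earlier results of these data known. Named were all 7 genes, from each list the genes beyond 2-fold and the 3 with the highest mean RPKM, the genes at 0 in marker lists, the class II region and the 5 genes nearest to the median. Others (Clec9a, Clec10a, Xcr1, Itgax, Id2, C1qa, Axl, Cd163, Siglech, Cx3cr1, Ctss, Rfx5, Nlrc5, H2-D1, Fcgr3, Kit, Cd34, Ctsg, Ms4a3 and Brd2) were chosen after their values were seen. A few listed genes are not reported here. Alternatives were other pseudocounts, filters, folds and scalings, and, chosen after seeing the data, no pseudocount, H2-DMb1 and H2-DMb2 summed, and NGNAAC. Sequences are from RefSeq (GRCm38.p6) and coordinates from GENCODE M21 on GRCm38, the assembly of mm10. Python 3.11.15 was used with scipy 1.17.1, numpy 2.4.6, pandas 2.3.3 and matplotlib 3.10.9.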

Additional observations from a re-analysis of the deposited data

How the results depend on the processing

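All 7 class II presentation genes were lower in 4T1-GMP under each alternative run, and 5 to 7 of them were at least 2-fold lower. Of 50 values of single genes under the alternatives, 44 stayed close to the reported log2 ratio, 6 moved and 0 reversed. Close means a difference no larger than the distance from the middle of the gene's counting interval (log2 scale) to its end. Raising the pseudocount to 1 moved the median log2 ratio from -3.25 to -2.76 and put Ciita at -0.90, which follows from its low level. The scalings (quantile normalization, library sizes without Rn45s, centring on the median of all genes, TMM) left the median between -3.42 and -3.25, and filters left it at -3.10. The share of all genes at least 2-fold lower was 8.4% over genes above 0 and 2.27% at a mean RPKM of at least 5. No paired analysis was possible because there was a single library on either side. Replicate error is unknown, and reads for Ciita and H2-DMb1 in 4T1-GMP (22 and 21) limit their intervals.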
